A study of Mus musculus with 2 samples.

Results

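Intergenic accessible sites at an intermediate distance from protein-coding genes were described in sorted embryonic cells. A site was 1 summit of the deposited peak list on chromosomes 1 to 19. Its summit had to lie outside every protein-coding gene, more than 1 kb and at most 10 kb from the nearest gene end. The rule selected 10806 of 134427 autosomal summits (8.04%, exact binomial 95% interval 7.89 to 8.19%), of 138387 summits in all. The cells were GFP-positive cells sorted by FACS from C57/Bl6 mouse embryos that carry Hb9::GFP, on embryonic day 10.5, and are labelled as spinal motor neurons. There were 2 replicates of this 1 group and no comparison tissue, and the peak list pools both replicates. No value below therefore has a replicate error, and intervals cover counting error only. The reporter marks cells through control sequence of Hb9, now called Mnx1, which encodes a homeodomain protein of motor neurons. The sources used here do not give how many embryos each replicate pooled or how much Hb9 sequence the reporter carries.

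ATAC-seq cuts and tags DNA that is not packed by nucleosomes, using the Tn5 transposase. Open sites just outside a gene's promoter can be enhancers, which loop to promoters and carry much of the cell-type control in the embryo. They can also be promoters of non-coding genes, or boundary elements bound by architectural proteins. In the embryonic spinal cord, homeodomain factors expressed from such elements divide progenitors, motor neurons and interneurons into classes.

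Some of the sites lay on starts of non-coding genes. RefSeq lists 1244 start windows of non-coding genes whose start met the same distance rule. Each window holds 300 bases, 250 before the start and 50 after it. A site's summit fell inside 121 of them (9.73%), beside 115 non-coding genes in 116 different summits. The windows below are shown because they span this group: 3 of the 4 with most reads, 1 beside the motor column gene Pou3f1, and 1 without any entry. They were chosen after their values were seen. The last was chosen for a CpG count and GC content close to the median of windows without an entry. They are RefSeq sequence of GRCm38.p6, the assembly behind mm10, written 5′ to 3′ in the gene's direction. Capitals mark GC boxes (GGGCGG or its complement) and CCAAT boxes (CCAAT or its complement).
Snhg8, chr3:123508287-123508586, minus strand: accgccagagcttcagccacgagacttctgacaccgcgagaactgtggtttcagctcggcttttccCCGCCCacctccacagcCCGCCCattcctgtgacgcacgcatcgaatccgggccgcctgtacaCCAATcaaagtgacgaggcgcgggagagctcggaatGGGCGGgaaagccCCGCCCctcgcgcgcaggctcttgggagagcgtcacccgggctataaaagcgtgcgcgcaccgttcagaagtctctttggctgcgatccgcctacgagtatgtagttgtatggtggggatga
Crnde, chr8:92356071-92356370, minus strand: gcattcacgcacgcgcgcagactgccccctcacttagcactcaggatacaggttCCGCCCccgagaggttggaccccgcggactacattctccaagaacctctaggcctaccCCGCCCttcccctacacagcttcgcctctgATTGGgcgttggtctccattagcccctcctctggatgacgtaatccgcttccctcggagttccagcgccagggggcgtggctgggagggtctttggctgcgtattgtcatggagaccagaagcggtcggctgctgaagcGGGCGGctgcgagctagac
Mir22hg, chr11:75461289-75461588, plus strand: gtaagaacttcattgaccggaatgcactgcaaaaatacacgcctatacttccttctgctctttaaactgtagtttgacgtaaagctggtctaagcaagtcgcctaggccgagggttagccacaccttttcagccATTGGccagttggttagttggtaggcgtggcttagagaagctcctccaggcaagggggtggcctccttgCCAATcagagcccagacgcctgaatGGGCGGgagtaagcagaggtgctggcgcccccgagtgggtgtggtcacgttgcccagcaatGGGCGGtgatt
Gm38545, chr4:124668143-124668442, minus strand: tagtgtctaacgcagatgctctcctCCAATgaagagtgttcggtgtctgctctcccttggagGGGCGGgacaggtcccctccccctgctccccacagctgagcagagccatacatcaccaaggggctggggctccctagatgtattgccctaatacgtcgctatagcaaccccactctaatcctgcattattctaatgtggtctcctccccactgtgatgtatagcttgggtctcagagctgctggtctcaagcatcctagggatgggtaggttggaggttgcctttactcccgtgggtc
Gm30224 without an entry, chr16:92596099-92596398, minus strand: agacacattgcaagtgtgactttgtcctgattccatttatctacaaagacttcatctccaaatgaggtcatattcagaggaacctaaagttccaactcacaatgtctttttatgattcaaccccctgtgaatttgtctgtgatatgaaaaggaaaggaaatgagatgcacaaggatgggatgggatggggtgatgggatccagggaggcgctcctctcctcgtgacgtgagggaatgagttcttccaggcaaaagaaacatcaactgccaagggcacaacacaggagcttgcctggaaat

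The Snhg8 window, a host gene of small nucleolar RNA, held a summit 1 base before its start with 236 reads and 9.20-fold enrichment. It held 30 CpG dinucleotides and 4 GC boxes, and lay 1734 bp from Prss12. The Crnde window lay 1676 bp from Irx5, an Iroquois homeobox gene, and its summit had 227 reads and 7.54-fold. The summit of Mir22hg, the host transcript of a microRNA, lay 3 bases after the start with 182 reads and 9.17-fold. Gm38545, near Pou3f1, had 76 reads and 5.93-fold with only 6 CpG. The Gm30224 window, near the blood regulator Runx1, had 3 CpG and no GC or CCAAT box. Windows with a site thus ranged from CpG-rich to CpG-poor.

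Across the group, the 121 windows with a site had a median of 14 CpG and 56.3% GC. The 1027 windows without any entry had 3 CpG and 47.7% GC. Another 96 windows were covered by an interval without holding a site's summit, and had a median of 7 CpG. A GC box, the letters GGGCGG on either strand, occurred in 51.2% of windows with a site (42.0 to 60.4%), 6.52% of windows without an entry (5.09 to 8.21%) and 13.1% of all 1244. The letters CCAAT occurred in 36.4% and 36.6% of the 2 groups, with 36.7% of all. TGACG, the core of the cAMP response element, was found in 30.6% against 13.1%, and in 14.5% of all. TATAAA was found in 8.26% against 17.9%, and in 16.1% of all. The homeodomain core TAATTA was found in 2.48% against 6.72%, and in 6.19% of all. CANNTG, the E-box, was found in 71.1% against 78.7%, and in 77.0% of all. CCGGAAG, an ETS core, was found in 4.96% against 3.21%, and in 3.94% of all. The 96 covered windows without a site's summit differed in part from those with one. They held a GC box in 35.4%, CCAAT in 37.5%, TGACG in 9.38% and TATAAA in 6.25%. TAATTA was found in 5.21% of them, CANNTG in 66.7% and CCGGAAG in 10.4%. All 7 motifs were searched on both strands and may overlap each other. A match is a run of letters, not a bound site. Of 207 windows with 10 or more CpG, 80 held a site (38.6%, 32.0 to 45.6%), with a median of 63 reads. Of 1037 with fewer, 41 did (3.95%, 2.85 to 5.33%), with a median of 29 reads.

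MicroRNA genes also lay beside some sites. In all, 26 sites had a summit within 1 kb of a microRNA hairpin's end, near 18 microRNA genes, and RefSeq gave 28 mature sequences with 26 different seeds for 17 of them. A microRNA's seed, bases 2 to 8, pairs with its targets and is printed in capitals. The sequences shown belong to the microRNA genes with most reads, to those known from neurons or epidermis, and to miR-7239, whose 3p seed equals that of miR-760. They were chosen after their values were seen.
mmu-let-7i-5p: uGAGGUAGuaguuugugcuguu
mmu-miR-210-3p: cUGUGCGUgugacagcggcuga
mmu-miR-760-3p: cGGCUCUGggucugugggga
mmu-miR-7239-3p: uGGCUCUGucaggcagguag
mmu-miR-132-3p: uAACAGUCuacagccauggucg
mmu-miR-212-3p: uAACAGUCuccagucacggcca
mmu-miR-203-3p: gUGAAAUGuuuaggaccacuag
mmu-miR-7a-5p: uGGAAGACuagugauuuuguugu

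The let-7i gene, a member of the family that accumulates as cells differentiate, lay in an interval at chr10:122985232-122986719 near Mon2 with 3 sites of 130, 137 and 155 reads. The nearest summit was 11 bp from the hairpin. Mir210, a hypoxia-induced microRNA, had sites of 195 and 65 reads near Rassf7. Mir760 had sites of 175 and 155 reads near Dnttip2. The summit of 155 reads lay 369 bp from the hairpin and within 250 bp of a transfer RNA gene, n-TRtct2. Mir132 and Mir212 are neighbours known for activity-dependent expression in neurons, and their 3p arms share the seed AACAGUC. They shared a site of 103 reads and 5.56-fold near Ovca2 and one of 30 reads near Hic1. The 3p arms of miR-760 and miR-7239 share GGCUCUG, and the single site at Mir7239 had 18 reads. Mir203, known from skin, had sites of 56 and 31 reads. Mir7-2, one of the genes of the neuronal and endocrine miR-7, had 1 site of 28 reads, and Mir375, of endocrine cells, had 1 of 28 reads. Of the 79 microRNA genes that themselves met the distance rule, 16 had a site within 1 kb (20.3%, 12.0 to 30.8%). The same share was not computed for other genes. Sequence within 1 kb of microRNA gene ends held 189 sites per Mb (124 to 277), against 53.2 per Mb over all sequence under the rule. Among the neuronal and motor neuron microRNA genes looked up, Mir196a-1, Mir196a-2 and Mir196b of the Hox clusters met the distance rule but had no site within 1 kb. Mir196b had an entry 720 bp away, with 58 reads and 3.08-fold, which is no site because it lay within 1 kb of a gene end. Mir124a-3, at 10304 bp from a gene end, lay just beyond the outer limit, and a site of 57 reads lay 934 bp from it. Its nearest entry, also beyond the outer limit, was 62 bp away with 103 reads and 3.91-fold.

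Most sites rested on few reads, as did most summits away from gene ends. Reads are the pileup at the summit, solved from the deposited fold and significance. Fold is the authors' ratio of that pileup to the caller's local background, taken with 1 added to both. The median site had 23 reads (5th to 95th percentile 12 to 83), 2.83-fold enrichment (1.89 to 7.34) and a local background of 6.04 reads. Its interval was 402 bp wide. Summits within 1 kb of a gene end had a median of 65 reads and 5.49-fold. Summits inside genes had 21 reads and 2.86-fold, those between genes at 10 to 100 kb 21 reads and 2.98-fold, and those beyond 100 kb 19 reads and 2.98-fold. The caller's q-value was under 0.05 for 80.1% of sites, against 82.1% of all autosomal summits. Sites with 100 or more reads numbered 349 (3.23%).

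Per length of sequence, summits at gene ends were 6.14 times as dense as the sites, and the sites were 1.15 times as dense as summits at 10 to 100 kb. The first ratio was 4.49 with 1 entry per interval and 10.8 in the upper 50% of summits by −log10 q. They filled 203 Mb at 53.2 per Mb (exact Poisson 95% interval 52.2 to 54.2). Gene ends held 327 per Mb, genes 57.5 per Mb and sequence at 10 to 100 kb 46.2 per Mb (45.6 to 46.8). The gene-end value pools starts with the opposite ends of genes and was not split. Among ends of known strand that border a gap between genes, 9427 of 14956 starts had a summit within 1 kb. Of the opposite ends, 1785 of 14763 did. The sites lay in 8753 intervals, and 7030 sites (65.1%) were the only summit in theirs. Up to 8 shared 1 interval, so summits are not independent. The whole interval lay more than 1 kb from every gene for 10285 sites (95.2%), and 197 (1.82%) shared an interval with a gene-end summit. The limits of the rule cut through a continuum. Just outside the inner limit, at 900 to 1000 bp, 203 summits had a median of 28 reads and 2.73-fold, and just inside, at 1000 to 1100 bp, 212 had 28 reads and 2.67-fold. At 9900 to 10000 bp, 70 summits had 24.5 reads and 2.98-fold, and at 10000 to 10100 bp, 88 had 24 reads and 2.83-fold.

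**Figure D1:**
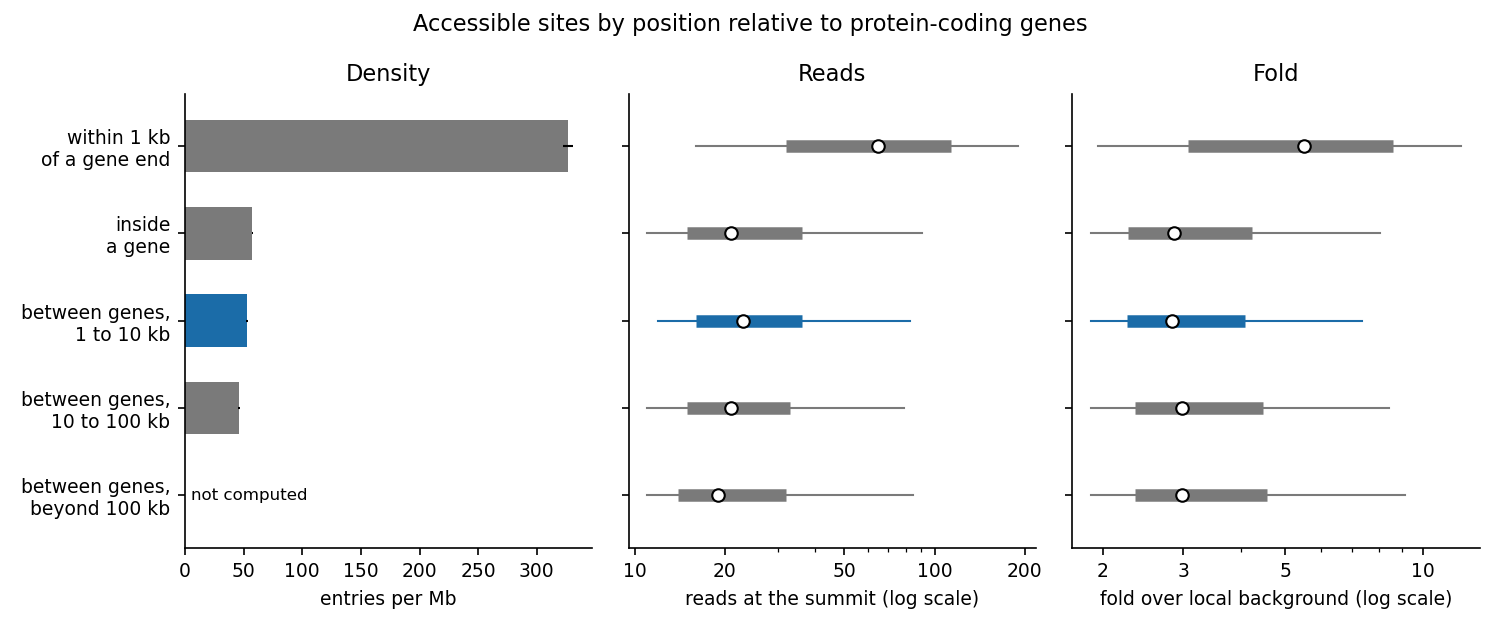
Density (left, bars with 95% Poisson intervals), reads at the summit (middle) and fold over local background (right) of autosomal summits in 5 position classes; thin lines span the 5th to 95th percentile, thick lines the quartiles and circles mark medians. Density was not computed beyond 100 kb. The blue class, between genes at 1 to 10 kb, holds 53.2 per Mb with a median of 23 reads, against 327 per Mb and 65 reads at gene ends.

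Sites were sparser beside gene starts than beside the opposite, far ends of genes. The strand was known for 8534 sites, none of them on chromosome 18. Beside starts there were 3766, or 43.9 per Mb (42.5 to 45.3), and beside far ends 4768, or 63.3 per Mb (61.5 to 65.1), a ratio of 0.69 (0.66 to 0.72). Their medians were close, at 24 and 22 reads. The same held in gaps between genes transcribed in the same direction, where both sides have the same length of sequence: 40.4 against 59.0 per Mb. Gaps between 2 starts held 46.3 per Mb, tandem gaps 49.7 and gaps between 2 far ends 65.9. Among sites of 30 or more reads the ratio was 0.85 (0.79 to 0.92), with 17.2 against 20.2 per Mb. Sequence at 10 to 100 kb, at 46.2 summits per Mb (45.6 to 46.8), lay between the 43.9 per Mb beside starts and the 63.3 beside far ends. Only the far-end side was thus denser than sequence at 10 to 100 kb.

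The density of sites varied with distance from gene ends that had a summit of their own. Starts with a summit within 1 kb had 60.1 sites per Mb (54.6 to 66.1) at 1 to 2 kb, 28.4 per Mb (24.3 to 32.9) at 3 to 4 kb and 60.1 per Mb (53.7 to 67.0) at 5 to 6 kb. The median local background of the sites beside these starts was 12.8 reads at 1 to 2 kb, 10.3 at 3 to 4 kb, 9.27 at 4 to 5 kb and 5.90 at 5 to 6 kb. The density was thus lowest at 3 to 4 kb, whereas the background was highest at 1 to 2 kb, where the density was as high as at 5 to 6 kb. A higher background raises the reads that a summit needs to be listed, and its part in the dip was not tested. Sites of 30 or more reads at these starts were at 40.5 per Mb at 1 to 2 kb, 15.1 per Mb (12.2 to 18.5) at 3 to 4 kb and 17.0 per Mb (13.7 to 20.9) at 5 to 6 kb. Beyond 5 kb they ranged from 17.0 to 23.6 per Mb, the highest at 7 to 8 kb (19.5 to 28.4). Starts without a summit had 30.3, 33.8 and 32.8 sites per Mb at 1 to 2, 2 to 5 and 5 to 10 kb. All far ends together had 61.7, 64.5 and 62.8 per Mb, with a background of 5.97 to 5.72 reads. Far ends with a summit within 1 kb also had fewer sites at 3 to 4 kb, 78.6 per Mb (61.0 to 99.6). They had 117 per Mb (97.4 to 139) at 1 to 2 kb and 116 per Mb (91.9 to 144) at 5 to 6 kb, with overlapping intervals. The background of these sites was 7.32, 8.10 and 6.46 reads at 1 to 2, 3 to 4 and 5 to 6 kb. Among gene ends without a summit within 1 kb, starts held 32.8 and far ends 59.6 sites per Mb. Among those with one they held 51.8 and 100.7 per Mb.

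**Figure D2:**
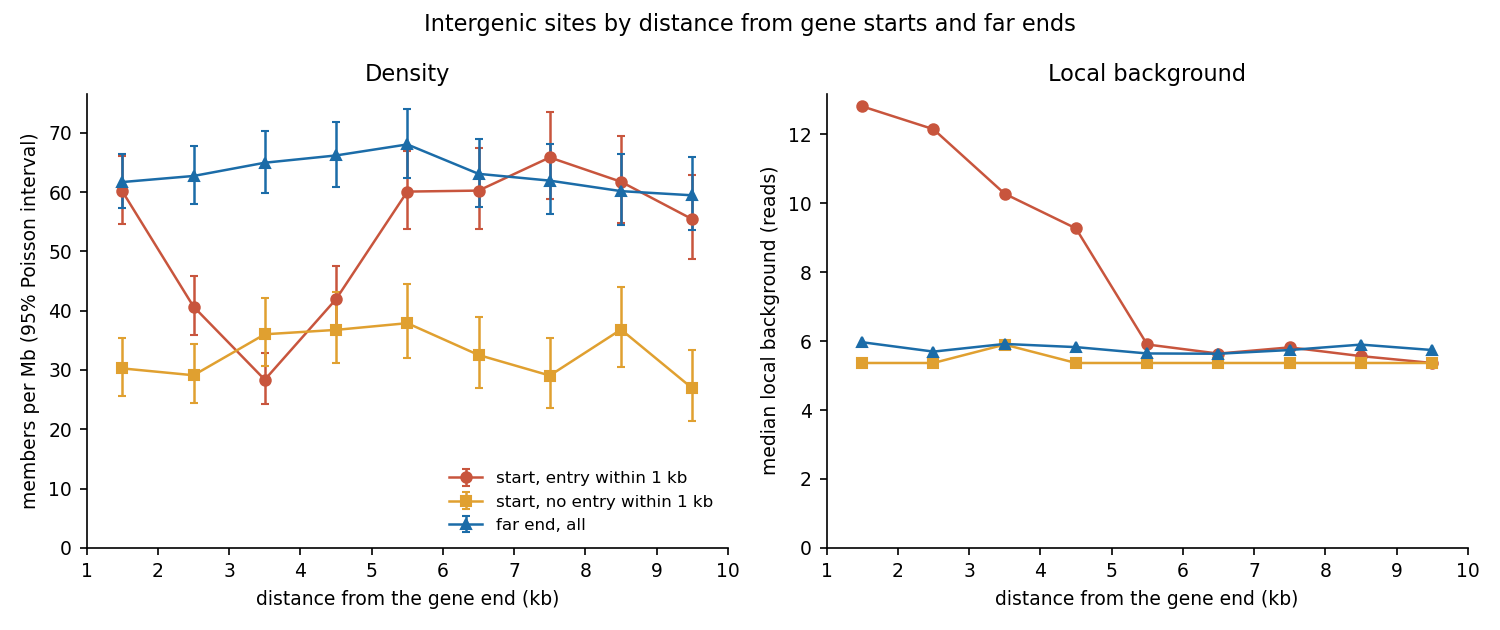
Sites per Mb (left, 95% Poisson intervals) and their median local background in reads (right) in 1-kb steps from 1 to 10 kb, for starts with a summit within 1 kb, starts without one and all far ends. Beside starts with a summit the density drops to 28.4 per Mb at 3 to 4 kb and the background falls from 12.8 to 5.90 reads by 5 to 6 kb, while far ends stay level on both measures.

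The share of sites near ends of non-coding genes was larger than the share of sequence near them. Of all sites, 1385 (12.8%, 12.2 to 13.5%) had a summit within 1 kb of an end of a non-coding gene, and that sequence was 6.18% of the total, giving 110 sites per Mb (105 to 116). Of summits at protein-coding gene ends 13.3% did, and of those at 10 to 100 kb 10.5%. Inside genes 4.34% did, and beyond 100 kb 4.83%. Long non-coding RNA genes had 881 sites at 126 per Mb, and pseudogenes 200 at 44.2 per Mb (38.3 to 50.8). Small nuclear RNA genes had 65 at 242 per Mb, small nucleolar RNA genes 46 at 205 per Mb and microRNA genes 26 at 189 per Mb. Of the 349 sites with 100 or more reads, 124 (35.5%) lay within 1 kb of a non-coding end.

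Transfer RNA genes, short genes read by RNA polymerase III, stood highest at 939 sites per Mb (809 to 1084). Their 186 sites (1.72% of all) lay in 0.097% of the sequence, with a median of 65 reads, and the median summit was 90.5 bp from the tRNA gene's end. Of 123 tRNA genes that met the distance rule, 97 had an entry summit within 250 bp (78.9%, 70.6 to 85.7%). The share was 87.2% of 47 tRNA genes within 1 kb of a gene end, 40.7% of 27 inside a gene (22.4 to 61.2%) and 70.9% of 165 at 10 to 100 kb. Chromosome 13 held 41 of the 123, of which 31 had an entry, and chromosome 11 held 29, of which 21 did. The 29 include Trnat-ugu, Trnap-ugg, Trnav-aac and Trnal-aag, listed at positions 8361 to 11797 near Gm46290, all without an entry. Whether these positions belong to chromosome 11 as used in the peak list was not tested. The shares for chromosome 11 and for all 123 may therefore be too low. Near Fcgr3 on chromosome 1, n-TGtcc5 had 180 reads and 3.96-fold over a background of 44.7 reads. Near Ang and Rnase4 on chromosome 14, n-TYgta10 had 172 reads and 7.19-fold. Near Shf on chromosome 2, n-THgtg4 had 176 reads and 6.01-fold. The median background of sites near tRNA genes was 16.3 reads, against 6.04 for all sites. tRNA genes are near-identical copies, and the sources used here do not say how reads matching several copies were placed.

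**Figure D3:**
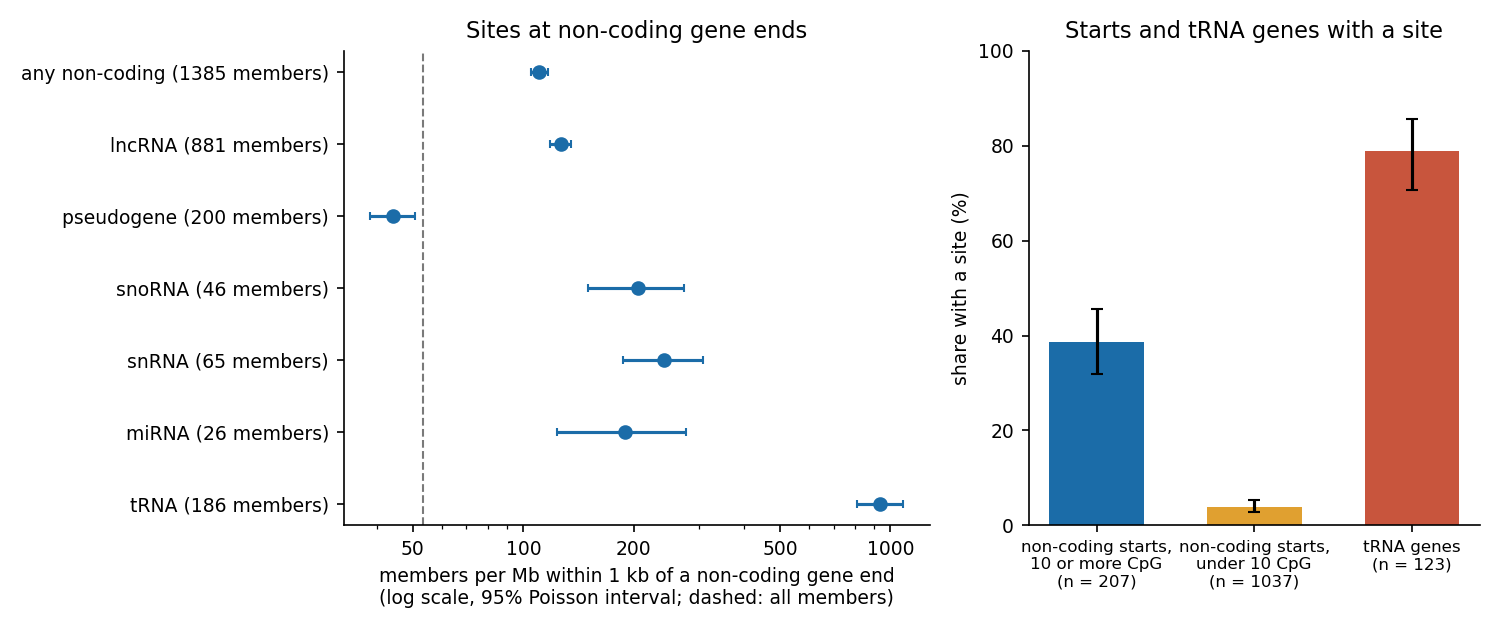
Left, sites per Mb within 1 kb of the ends of non-coding genes by type (log axis, 95% Poisson intervals; the dashed line is the 53.2 per Mb of all sites). Right, share of non-coding starts with a site's summit in their 300-base window, split at 10 CpG, and share of tRNA genes with an entry within 250 bp, all 1 to 10 kb from a protein-coding gene (95% exact binomial intervals): 38.6%, 3.95% and 78.9%.

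Of 18478 protein-coding genes with sequence under the rule, 5984 (32.4%) had at least 1 site, 3374 had exactly 1, 1165 (6.30%) had 3 or more and 267 had 5 or more. The predicted gene 9230019H11Rik had most, with 16 sites, all on its start side and with backgrounds of 26.4 to 36.1 reads. Meis1, a homeobox cofactor of Hox proteins, had 15, of which 5 lay on the start side and 10 on the far side. Pou3f2, a neural POU factor, had 11. Fcgr3, BC107364, Neurog2, Abt1 and Dhx37 had 10 each, and Irx5 and B4galnt2 had 9. In 5 of these 10 genes, sites lay within 1 kb of a tRNA gene: 8 of 10 at Fcgr3, 7 of 10 at BC107364, 10 of 10 at Abt1, 10 of 10 at Dhx37 and 7 of 9 at B4galnt2. Of the 10, Meis1, Pou3f2, Neurog2 and Irx5 are developmental regulators, and none of their sites was near a tRNA gene.

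The strongest Meis1 sites had 92 reads and 4.03-fold at 5770 bp past the far end and 81 reads and 6.49-fold at 7779 bp before the start. The strongest Pou3f2 site had 111 reads and 5.33-fold at 9145 bp before the start. At Neurog2, a proneural gene of motor neuron progenitors, the 5 start-side sites had 49 to 131 reads and the 5 far-side sites 44 to 95 reads. Its strongest, at chr3:127625356-127626349, had 131 reads and 5.08-fold at 7209 bp before the start. The 2 Neurog2 sites at 3893 and 4890 bp before the start had backgrounds of 41.0 and 34.8 reads.

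All 15 motor neuron transcription factors had a site, 47 in all, at 209 per Mb (153 to 277), against 32.4% of genes and 53.2 per Mb genome-wide. The median gene of the list had 3 sites and the median of all genes was 0. Their median of 29 reads and 2.54-fold stood beside 23 reads and 2.83-fold for all sites. With a q-value under 0.05 were 38 of the 47 (80.9%). Mnx1 had 7 sites, Isl1 and Onecut2 had 6, Lhx3 had 4, Ebf1, Myt1l, Nkx6-2, Onecut1 and Zeb2 had 3, Lhx4, Nkx6-1 and Onecut3 had 2, and Ebf2, Ebf3 and Isl2 had 1. Without Mnx1, the other 14 genes had 40 sites at 193 per Mb (138 to 263).

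Isl1, the LIM-homeodomain factor that starts the motor neuron programme with Lhx3, had 5 sites past its far end at 1112 to 4721 bp and 1 before its start at 2727 bp. The strongest, at 4354 bp in chr13:116293343-116294282, had 68 reads and 5.63-fold, and the others had 23 to 39 reads. All 4 Lhx3 sites lay past its far end, at 1502 to 9568 bp, with 14 to 29 reads and at most 2.94-fold. Lhx3 had 9 kb of sequence under the rule, all or nearly all on that side, so its start side could hardly hold a site. Isl2, the later-acting relative of Isl1, had a single weak site of 13 reads and 1.89-fold at 2777 bp before its start, whose q-value was above 0.05. Onecut1, a cut-homeobox factor of young motor neurons, had 3 sites before its start, of 112 reads and 6.11-fold at 1215 bp, 58 reads at 7651 bp and 32 reads at 7978 bp. The 6 Onecut2 sites had 19 to 44 reads. Nkx6-2, a ventral progenitor homeobox gene, had a site of 67 reads and 5.72-fold at 5258 bp before its start. Nkx6-1, its paralog, had one of 47 reads and 4.29-fold at 2889 bp past its far end. Ebf1, a helix-loop-helix factor of differentiating neurons, had one of 56 reads and 5.48-fold at 6979 bp before its start, and the single Ebf3 site had 41 reads and 6.60-fold. The sites at Lhx4, Myt1l, Onecut3 and Zeb2 had 12 to 29 reads.

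In the list of cholinergic and motor neuron products, 3 of 7 genes had a site (42.9%, against 32.4% of all genes), 5 sites in all at 47.1 per Mb (15.3 to 110). Chat, the enzyme that makes acetylcholine, had 2 before its start, of 37 reads and 3.63-fold at 2883 bp and 23 reads and 3.77-fold at 7282 bp. Prph, an intermediate filament gene of motor and sensory neurons, had 2 in 1 interval of 21 and 15 reads. Slc10a4, a transporter gene of cholinergic vesicles, had 1 of 22 reads. Genes of motor columns and subtypes had a site at 7 of 12 (58.3%, against 32.4% of all genes), at 85.0 per Mb (48.6 to 138). Mecom had 4 sites in 1 interval before its start with 34 to 109 reads. Foxp2 had 3 of 43 to 77 reads, and Pou3f1 had 3 of 28 to 76 reads, the strongest being the Gm38545 start printed above. The intervals of the cholinergic and column lists include the genome-wide density.

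Genes of other neural cell types had densities whose intervals overlap that of the motor neuron factors. Over all genes, 32.4% had a site, at 53.2 per Mb. Neural progenitor genes had a site at 13 of 17 (63 sites, 231 per Mb, 177 to 295), with 10 at Neurog2 and 8 at Sox1. Ventral interneuron regulators had one at 14 of 15 (55 sites, 231 per Mb, 174 to 301), led by Foxd3 and Gata3 with 7 and Nkx2-9 with 6. Nkx2-9, a homeobox gene of the floor plate border, held a site of 162 reads and 8.32-fold at 1216 bp before its start. Dorsal interneuron regulators had one at 14 of 15 (55 sites, 230 per Mb, 173 to 299), led by Gsx2 with 9 and Lhx2 and Barhl2 with 7. Of the sensory neuron and neural crest list, 11 of 18 genes had one (50 sites, 182 per Mb, 135 to 241), with 7 at Foxd3 and 6 at Isl1. Isl1, Foxd3, Foxp2 and Pou4f1 stand in more than 1 list, so these counts share sites. The densities do not separate the labelled cell type from these others.

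Axon guidance and adhesion genes had a site at 13 of 19 (68.4%, against 32.4% of all genes), 36 sites in all at 116 per Mb (81.1 to 160). Cxcr4, a chemokine receptor, had 6, of which 3 in 1 interval past its far end had 106, 109 and 115 reads. Efna5, an ephrin ligand, had 5 before its start with 64 to 141 reads. Epha4, an ephrin receptor of limb motor axons, had 5 with at most 76 reads. Neuronal cytoskeleton and synapse genes had one at 8 of 16 (50%, 12 sites, 57.1 per Mb, 29.5 to 99.7), and this interval includes the genome-wide density. Stmn1, Snap25 and Nefl had 2 each with at most 28 reads.

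The lists of non-neural tissues and housekeeping genes ranged from 51.5 to 126 per Mb, against 53.2 per Mb of all genes. The share of genes with a site ranged from 33.3% (liver and endoderm) to 61.1% (blood and endothelial), against 32.4% of all genes. The interval of the epidermal list includes the genome-wide density. Mesoderm and muscle genes had a site at 10 of 19 (100 per Mb, 66.6 to 145), led by Twist1 with 8, Foxc1 with 5 and Myh3 with 4. Liver and endoderm genes had one at 5 of 15 (98.7 per Mb, 58.5 to 156), with 6 at Foxa2, which the floor plate also expresses, and 4 at Cdx2. Blood and endothelial genes had one at 11 of 18 (90.0 per Mb, 55.7 to 138), led by Cd34 and Pecam1 with 3 and Cdh5 with 2. Epidermal genes had one at 5 of 12 (51.5 per Mb, 22.2 to 102), with 2 each at Esrp1, Krt8 and Krt5. Housekeeping genes had one at 7 of 17 (126 per Mb, 71.8 to 204), with 4 at Rab7 and 2 at Eef2.

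Hox genes, which pattern the body axis and motor pools, had a site at 17 of 32 (53.1%, against 32.4% of all genes). These were 43 sites at 251 per Mb (182 to 338). The Hoxa cluster had 15, of which Hoxa13 held 6. Its strongest site lay at chr6:52221460-52222197, 1313 bp past the far end of Hoxa9, with 103 reads and 4.48-fold. The Hoxb cluster had 10, the strongest 9668 bp from Hoxb9 with 69 reads. The Hoxc cluster had 12, the strongest near Hoxc12 with 65 reads and 8.09-fold. The Hoxd cluster had 6, the strongest 4735 bp past the far end of Hoxd3 with 89 reads and 5.24-fold. Hoxa13 lies at an end of its cluster, with 14.5 kb of sequence under the rule.

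**Figure D4:**
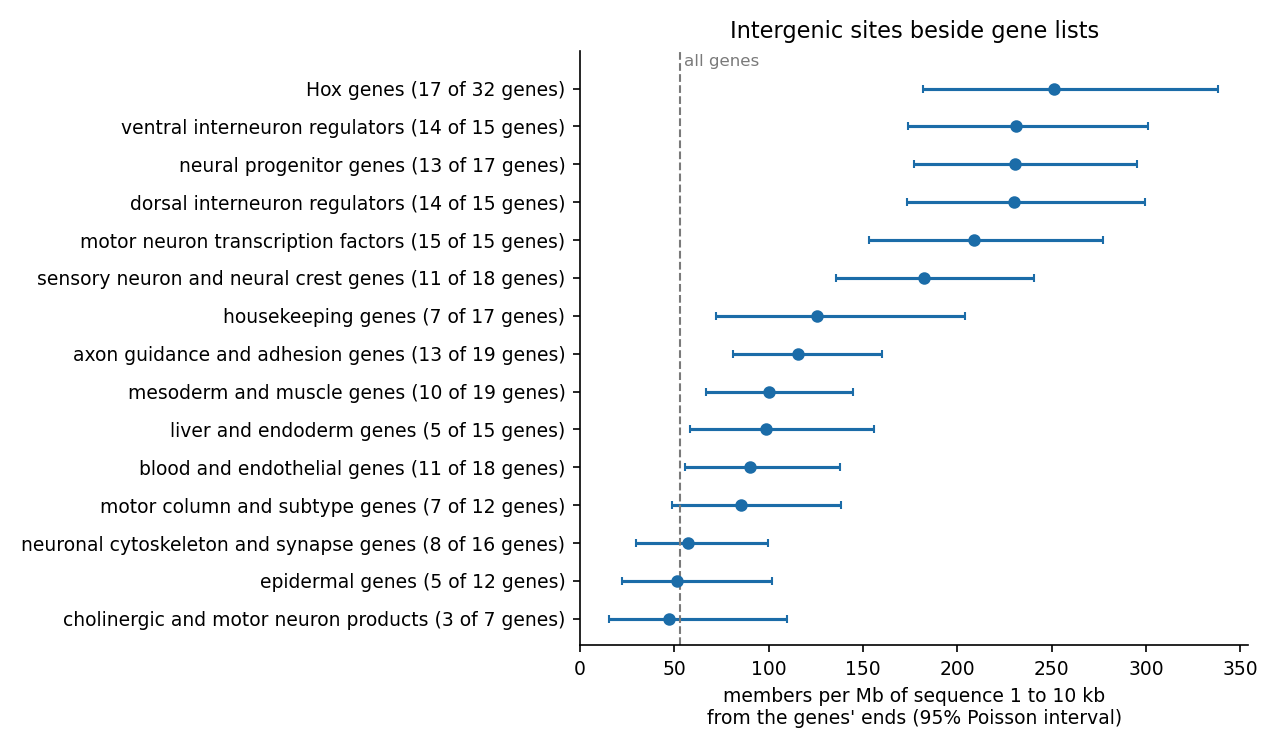
Sites per Mb of sequence 1 to 10 kb from the ends of the genes in 15 lists, with 95% Poisson intervals, and in brackets the genes with a site of those with such sequence; the dashed line is the 53.2 per Mb of all genes. Hox genes, neural progenitor genes, both interneuron lists and motor neuron transcription factors lie at 209 to 251 per Mb, and cholinergic genes at 47.1.

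The region upstream of Mnx1 itself stood apart in background. Mnx1 lies at chr5:29473823-29478470 on the minus strand. Its 5 upstream sites, 2598 to 8506 bp before the start, had local backgrounds of 67.3 to 90.2 reads, the 5 highest of all 10806 sites. The strongest was in chr5:29484804-29486486 at 6824 bp, with 545 reads and 7.04-fold, and the same interval held sites of 237 and 232 reads. The site at 8506 bp had 156 reads and 2.30-fold, and the one at 2598 bp had 140 reads at only 1.55-fold. Within the gene and at its start, entries had backgrounds of 40.5 to 57.0 reads. Past the far end, 2 sites had 72 reads and 6.55-fold at 5835 bp and 19 reads and 1.69-fold at 3908 bp, with backgrounds of 10.1 and 10.9 reads. Reads from the reporter's Hb9 sequence and from the Mnx1 locus cannot be told apart in this list. The next highest backgrounds were 55.1 reads and below, at Fcgr3, beside tRNA genes.

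**Figure D5:**
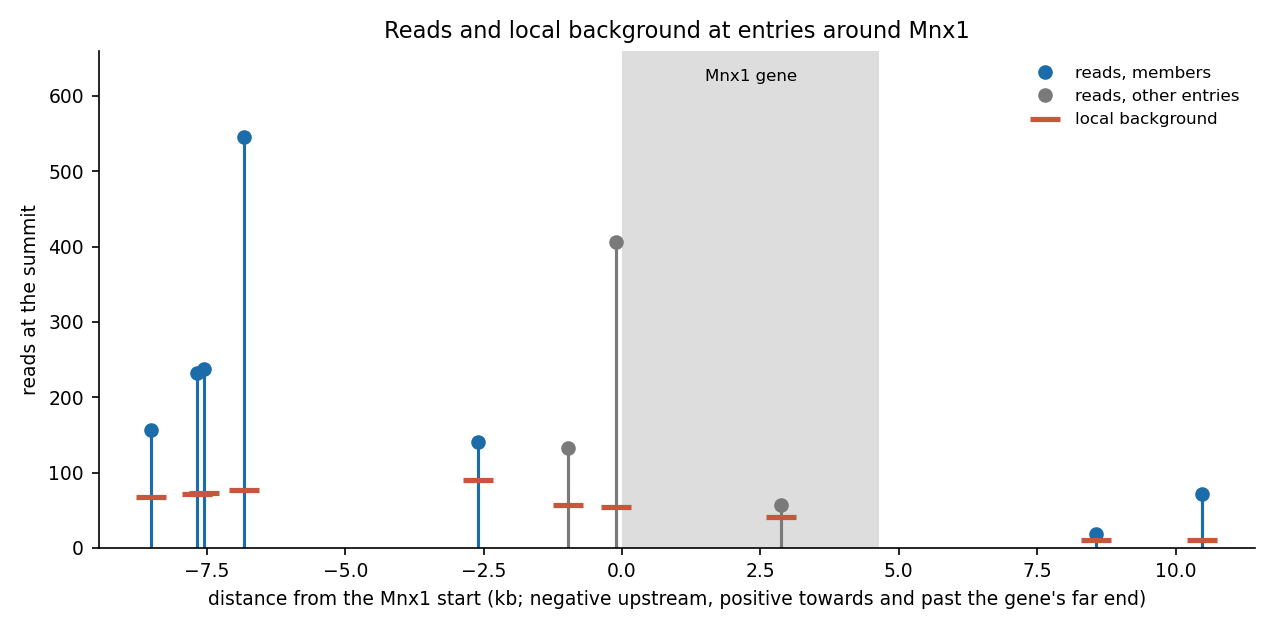
Reads at the summit (points) and local background (red bars) of entries around Mnx1, by distance in kb from its start, with the gene shaded. Upstream sites, at negative distance, have backgrounds of 67.3 to 90.2 reads, and those past the far end 10.1 and 10.9.

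At the other extreme were sites of very high fold. In 22 sites (0.204%) the fold was 20 or more, against 0.00819% of gene-end summits, 0.188% inside genes, 0.412% at 10 to 100 kb and 0.860% beyond 100 kb. All 22 were alone in their interval, which was 162 to 597 bp wide, and none lay within 1 kb of a non-coding end. Their median was 247.5 reads. The highest fold, 50.7 with 724 reads, was 5654 bp from Spinkl on chromosome 18. Other high values were 44.9-fold near Prl3d3, 40.9-fold near Olfr497, 40.5-fold near Ccdc71l, 37.9-fold near Dsg1a, 36.3-fold near Mrgprb2, 35.9-fold near Arg2, 33.4-fold near Sybu with 614 reads and 32.4-fold near Sult2a5. Of these neighbours, Prl3d3 encodes a placental lactogen, Olfr497 an olfactory receptor, Dsg1a an epidermal adhesion protein and Sult2a5 a sulfotransferase. The others, Spinkl, Ccdc71l, Mrgprb2, Arg2 and Sybu, are not described here, so these examples do not characterise the group. Repeat annotation was not used here. Among sites under 20-fold with a background under 30 reads, the most reads were 293 near Kpna1 and near Gm11232, 249 near Tmem125 at the start of Gm40237, 246 near Elovl5 and 243 near Mier3.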

How the data were processed

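ATAC-seq was run on GFP-positive cells of 1 group with 2 replicates. Per the submitters' processing notes, the tools include MACS2 2.2.7.1 with BWA 0.7.1.7 and, besides, Trim Galore with SAMtools 1.7.2 and cutadapt 0.6.2; the build was mm10 and no settings are given. The deposited pooled peak list gives a score (not used), a fold and the −log10 of p and q, all as the authors deposited them. The fold was read as the ratio of summit reads to local background with 1 added to both. Reads and background were solved from the fold and −log10 p by the Poisson tail, to within 0.001 in −log10 p for 99.99% of entries; the smallest was 11 reads and the genome-wide background 5.37. Library totals are not known. Genes came from RefSeq GRCm38.p6, with strand for 80.0% of gene ends that border a gap. Strand and start windows were lacking for chromosome 18. Python 3.11.15 and SciPy 1.17.1 gave exact Poisson and binomial intervals. With 1 pooled list no test was possible. Scripts were tested on simulated data. Genes were named by rule: top sites by fold and reads with a background under 30 reads, the 10 genes with most sites, and set members of each list. The sites and lists were chosen with earlier results of these data known. Some genes that this rule selects are not reported here.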

Additional observations from a re-analysis of the deposited data

How the results depend on the processing

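Of the density of sites, 53.2 per Mb, alternatives gave 42.6 (q-value under 0.05), 23.7 (upper 50% by −log10 q), 42.5 (1 entry per interval), 54.8 (named genes only) and 51.7 (at most 5 kb). Sequence at 10 to 100 kb stayed sparser, at a ratio of 1.14 to 1.15, under the q-value, upper 50%, interval and background settings, and gene ends were 4.49 to 10.8 times as dense as the sites. The median of 23 reads became 27 with a q-value under 0.05 and 24 at most 5 kb from a gene. The share near non-coding ends, 12.8%, became 13.7% with a q-value under 0.05, 10.8% with 1 entry per interval and 8.35% within 500 bp. Of the 15 motor neuron factors, 12 to 14 had a site under the alternatives run. The start-to-far-end ratio and its alternatives were added after seeing the data. From 0.69 it became 0.85 for 30 or more reads, 0.85 for 60 or more, 0.55 at gene ends without an entry and 0.51 at those with one. No paired analysis was possible because the deposited list pools both replicates. A site of under 11 reads could not be listed, so sequence without one is not shown to be closed.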

Other observations

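The density of sites differed between chromosomes, from 35.7 per Mb on chromosome 7 and 38.7 on chromosome 16 to 64.1 on chromosome 11 and 64.3 on chromosome 4. Across the 10806 sites, distance from the gene end had a Spearman rho of -0.10 with reads, 0.07 with fold and -0.21 with local background. These are descriptions over summits that share intervals and local background. The tRNA genes farther than 100 kb from a protein-coding gene had an entry within 250 bp in 1 of 29 cases (3.45%, 0.087 to 17.8%), against 78.9% of those at 1 to 10 kb. Whether the listed positions of all these tRNA genes match the sequence used in the peak list was not tested. Backgrounds of 30 reads or more occurred at 73 sites. The most lay beside 9230019H11Rik with 12, Gm40363 with 8, Fcgr3 with 7 and Mnx1 with 5, and Sox21, Sfi1, Marcks, Pou3f2 and Shf had 3 each. Each other gene had 1 or 2.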
